A study of Mus musculus with 12 samples.

Results

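The Prader-Willi domain on mouse chromosome 7 was described here by the DNA methylation of 3 of its genes, Snrpn and Snurf, which share a promoter, and Ndn. All coordinates are of build mm9. Members were the cytosines of the Snrpn-Snurf control region (chr7:67149000-67150600) and of the Ndn gene (chr7:69492000-69495500) that reached 20% methylation in at least 1 of the 12 libraries. This rule kept 44 cytosines of the 1710224 in the series that reached 20%, namely 30 of the 102 listed in the Snrpn-Snurf window and 14 of the 35 listed in the Ndn window. In the Snrpn-Snurf window the highest cytosine left out reached 16.8% and the lowest one kept reached 55%, so the limit fell in a wide gap. In the Ndn window these values were 19.2% and 20%, so the limit cut through a continuous range there. Listed positions are cytosines of GC as well as of CG, and the context of those left out was not determined.

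The Prader-Willi domain is a cluster of imprinted genes. Its imprinting center spans the Snrpn promoter and first exon, which carry methylation on the maternal copy from the oocyte on, while the unmethylated paternal copy is the one transcribed. Ndn, Magel2 and Mkrn3 are also expressed from the paternal copy, and the methylation of their maternal copies is laid down after fertilization under the control of that center. Snrpn encodes SmN, a core protein of the spliceosome in neurons, Snurf a small protein translated from the 5′ part of the same transcript, and Ndn the MAGE family protein necdin, which restrains the division of neuronal precursors.

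The libraries were made by reduced representation bisulfite sequencing (RRBS), in which the enzyme MspI cuts DNA at CCGG and bisulfite then shows which cytosines of the size-selected fragments are methylated. Bimaternal (BM) samples, made by injecting a parthenogenetic haploid embryonic stem cell (phESC) into an MII oocyte, were an E15.5 whole embryo, an E19.5 brain and an adult brain. The bipaternal (BP) sample, made with an androgenetic haploid embryonic stem cell (ahESC) plus a sperm in an oocyte without its own nucleus, was an E15.5 whole embryo. BM and BP samples are labelled as knockouts of differentially methylated regions, and the labels do not name the deleted regions or say how many animals or lines went into a library. The wild-type (WT) samples were an E15.5 whole embryo and an adult brain. Stem cells labelled WT were phESCs, whose genome is maternal, ahESCs, whose genome is paternal, and diploid embryonic stem cells (ESCs), each at late and at early passage. The ages of adults and the passage numbers were not given in the sources used here. Each of the 12 groups had 1 library, which leaves the values without a replicate error and the differences untested. The SD given below is the spread over the cytosines of a window, which share reads and are not replicates.

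Between 3773871 cytosines (BP embryo) and 5903648 (WT adult brain) had a value per library, and the number of reads behind each percentage is unknown, so no confidence interval can be given. The libraries of late phESCs, late ahESCs, BM adult brain and WT adult brain had values on unplaced Y chromosome sequence (2209 to 7697 positions), while the other 8 libraries had none. Sharing was counted as positions with a value in both libraries of a pair, as a percentage of those with a value in either. By this measure the late phESC library shared 37.0% to 47.6% with any other library. The remaining 11 libraries each had a partner with which they shared at least 77.8%. Comparisons of late haploid ESCs with early ones, of WT adult brain with WT embryo, and of BM adult brain with BM E19.5 brain therefore set libraries against each other that cover different positions, and this cannot be told apart from stage or passage.

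The kept cytosines of the Snrpn-Snurf window lay between positions 67149466 and 67150115, on both sides of the shared start site. RefSeq's promoter of Snurf, of build GRCm38.p6, was laid on mm9 by its pattern of CG and GC alone. It matched 25 listed positions at chr7:67150036-67150335, against 10 at the next best place, and put the start site at 67150085 on the minus strand. The kept cytosines reached from 30 bp upstream of the start to 619 bp downstream, that is, over the first exon and into the first intron. The 14 cytosines of the Ndn window lay between 69493379 and 69493565 in the only exon of Ndn, 85 to 271 bp after the first base of its coding sequence (69493294 to 69494268, plus strand). The exon matched 35 listed positions, against 10 at the next best place.

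The sequence upstream of the Snurf-Snrpn start and the coding stretch of Ndn that holds its kept cytosines are shown 5′ to 3′ on the strand of the gene, with the upstream sequences of Mkrn3 and Peg12, the other imprinted genes of the domain whose promoters could be placed. Nearly all kept cytosines of the Snrpn-Snurf window lie downstream of the start, outside the sequence shown. Capitals mark the CG dinucleotides with a cytosine that reached 20% in any library. The upstream sequences are from RefSeq (GRCm38.p6), and the Ndn stretch is from GENCODE M21.
Snurf and Snrpn, 250 bases before the start, chr7:67150086-67150335, minus strand: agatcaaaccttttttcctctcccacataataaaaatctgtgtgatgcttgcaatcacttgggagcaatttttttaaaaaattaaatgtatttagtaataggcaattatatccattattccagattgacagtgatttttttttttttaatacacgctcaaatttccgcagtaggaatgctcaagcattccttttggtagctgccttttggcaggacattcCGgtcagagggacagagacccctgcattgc
Mkrn3, 250 bases before the start, chr7:69565040-69565289, minus strand: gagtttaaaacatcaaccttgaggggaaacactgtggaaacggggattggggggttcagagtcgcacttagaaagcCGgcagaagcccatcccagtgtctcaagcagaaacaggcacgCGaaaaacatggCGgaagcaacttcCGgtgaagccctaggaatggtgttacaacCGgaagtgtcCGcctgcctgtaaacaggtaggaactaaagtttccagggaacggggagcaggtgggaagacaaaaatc
Peg12, 250 bases before the start, chr7:69609397-69609646, minus strand: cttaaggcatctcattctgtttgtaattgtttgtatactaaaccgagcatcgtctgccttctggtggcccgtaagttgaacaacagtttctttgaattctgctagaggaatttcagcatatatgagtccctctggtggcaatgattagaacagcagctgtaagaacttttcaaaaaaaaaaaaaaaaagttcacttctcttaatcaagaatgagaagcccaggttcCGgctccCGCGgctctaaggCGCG
Ndn, coding stretch of 205 bases, chr7:69493370-69493574, plus strand: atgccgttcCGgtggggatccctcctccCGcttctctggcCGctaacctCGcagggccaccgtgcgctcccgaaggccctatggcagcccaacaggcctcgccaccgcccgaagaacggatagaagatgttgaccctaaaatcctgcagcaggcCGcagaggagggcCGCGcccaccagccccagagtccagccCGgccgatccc
The Snurf sequence held 3 CG dinucleotides and only the one in its MspI site was covered. That one (minus-strand cytosine 67150115) stands at the upstream end of all kept cytosines of the window. The Mkrn3 sequence held 10 CG dinucleotides, 7 of them listed and 6 kept. Of the 8 in the Peg12 sequence 5 were listed and all 5 were kept, and of the 17 in the Ndn stretch 8 were listed and all 8 were kept. Among RefSeq promoters of 300 bases, the palindrome CGCATGCG was in those of Snurf, Ndn, Snhg14 and all 4 of Snrpn, and not in those of Magel2, Mkrn3, Peg12 and Ube3a. It was in 1.87% of all 32851 promoters. This motif was chosen after the sequences had been read.

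In embryos and brains the Snrpn-Snurf window had intermediate means in BM and WT samples and almost no methylation at the 7 cytosines read in the BP embryo. The mean over the measured cytosines was 41.3% in the BM embryo (SD 26.5, 22 cytosines) and 1.19% in the BP embryo (SD 3.15, 7 cytosines), against 65.7% in the WT embryo (SD 20.4, 24 cytosines). In brain it was 54.96% in BM at E19.5 (SD 27.1, 26 cytosines) and 25.8% in the BM adult (SD 25.8, 13 cytosines), against 37.9% in the WT adult (SD 26.1, 19 cytosines). The WT embryo was the highest of these 6 libraries, and the BP embryo was the only one in which no cytosine passed 10%. The 7 BP cytosines were all on the minus strand, and on these same 7 the BM embryo averaged 4.12% and the WT embryo 90.8%. The means of BP and BM thus differ mainly in the cytosines that were read.

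In ESCs the Snrpn-Snurf window was methylated in 1 of 6 libraries. At late passage the mean was 0.395% in phESCs (10 cytosines), 7.39% in ahESCs (20 cytosines) and 1.42% in diploid ESCs (25 cytosines). At early passage it was 1.24% in phESCs (25 cytosines) and 2.85% in ahESCs (22 cytosines), against 54.3% in diploid ESCs (30 cytosines). Early diploid ESCs were the only library with a value at all 30 cytosines. All 30 stood between 25% and 75%, from 33.3% to 68.75%. The higher mean of late ahESCs rested on a few cytosines, with a median of 0.893% and a highest value of 41.2%.

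**Figure D1:**
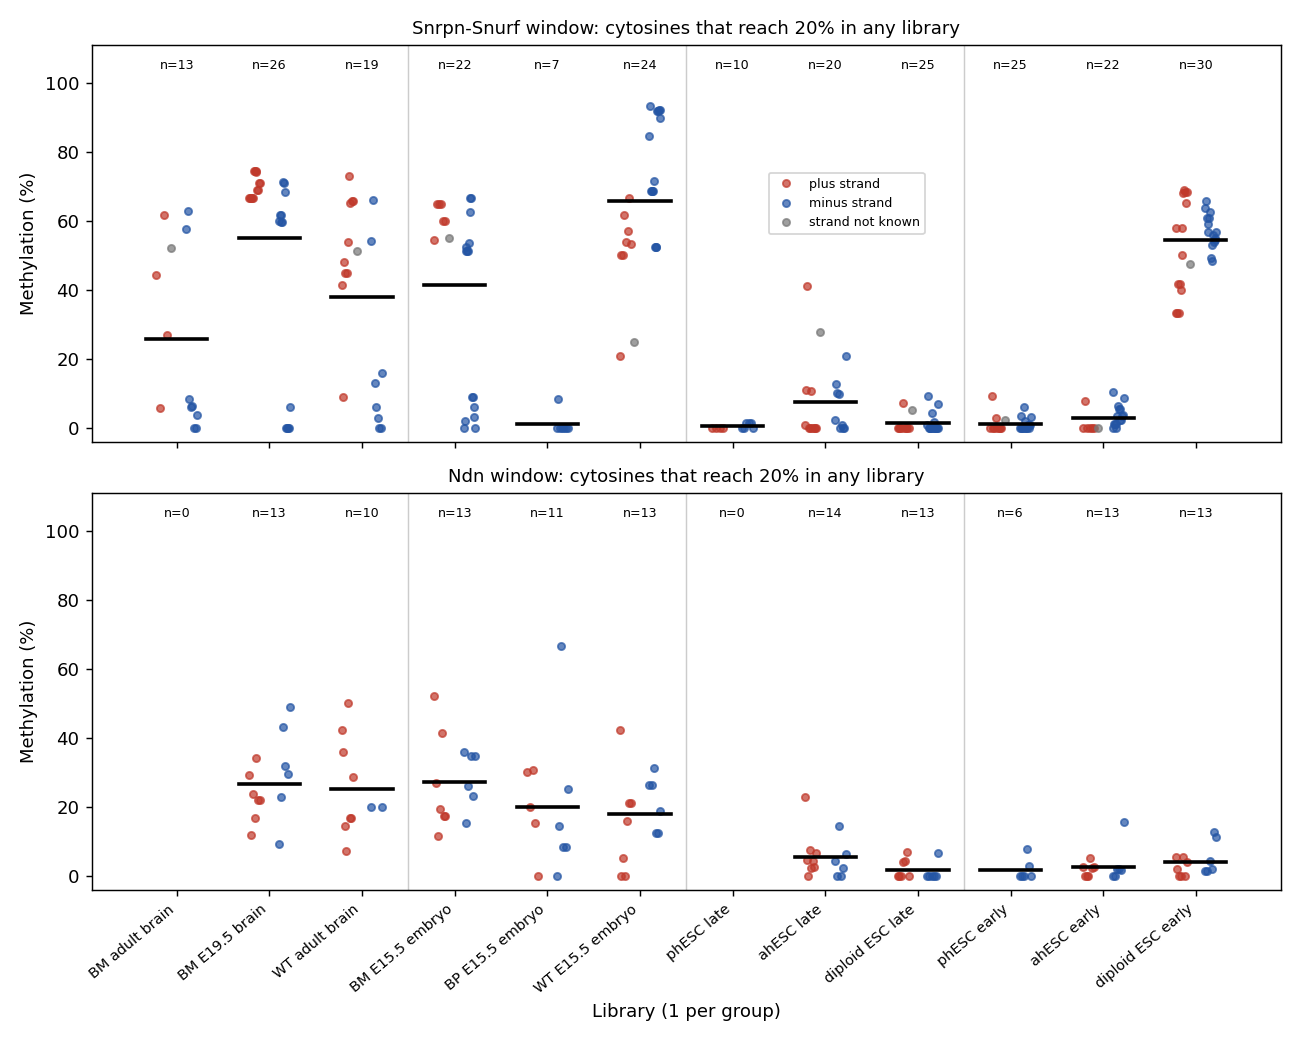
Methylation of each kept cytosine (points, percent, coloured by strand) in the Snrpn-Snurf window (upper panel) and the Ndn window (lower panel) in each of the 12 libraries, with the mean as a black bar and the number of measured cytosines above. The Snrpn-Snurf points of the BP embryo and of 4 of the 6 ESC libraries lie under 10.4%, those of late ahESCs reach 41.2%, and those of the BM and WT samples spread by strand. The Ndn points, kept mainly for their values in embryos or brains, lie higher there than in ESCs. No Ndn cytosine was measured in BM adult brain or late phESCs.

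At its kept cytosines Ndn followed another pattern, with low methylation in all measured ESCs and a moderate level in embryos and brains of every kind, the BP embryo included. Only 1 of the 14 cytosines reached 20% in an ESC library (late ahESCs), so the rule itself favoured cytosines that are high in embryos or brains. Over all listed cytosines with a value the mean was 11.6% in the BM, 7.52% in the BP and 7.54% in the WT embryo, against 1.58% in early diploid ESCs. The kept cytosines gave the values below. The Ndn mean was 27.3% in the BM embryo (SD 11.8, 13 cytosines) and 19.9% in the BP embryo (SD 18.8, 11 cytosines), against 17.9% in the WT embryo (SD 12.2, 13 cytosines). In brain it was 26.5% in BM at E19.5 (SD 11.4, 13 cytosines) and 25.1% in the WT adult (SD 13.6, 10 cytosines), and none of the 14 cytosines had a value in the BM adult. The widest gap among these 5 means was 9.38 points. With 1 library per group and unknown read numbers, their order is not resolved, and the SD over cytosines cannot decide it. At late passage Ndn averaged 5.51% in ahESCs and 1.64% in diploid ESCs, with no value in phESCs. At early passage it was 1.75% in phESCs (6 cytosines) and 2.59% in ahESCs (13 cytosines), against 3.85% in diploid ESCs (13 cytosines). Early diploid ESCs thus held a methylated Snrpn-Snurf window beside an Ndn gene in which no cytosine passed 12.7%.

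Single Ndn cytosines of embryos and brains spanned a wide range. They ran from 11.5% to 52% in the BM embryo and from 0% to 66.7% in the BP embryo, against 0% to 42.1% in the WT embryo. The cytosine in the MspI site at 69493379 was the highest of the BM embryo, at 52%, and stood at 42.1% in the WT embryo. The MspI site at 69493565 stood at 34.6% in the BM embryo and 25% in the BP embryo, against 18.75% in the WT embryo. Between 25% and 75% lay 7 of 13 Ndn cytosines in the BM embryo and 4 of 11 in the BP embryo, against 4 of 13 in the WT embryo. In the WT embryo the Snrpn-Snurf window had 16 of 24 cytosines in that range and 7 above it, up to 93.3%.

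The BP embryo was set against the WT embryo to compare an embryo without an oocyte genome with one that has both parental genomes. BP and BM samples are also labelled as knockouts, and the WT and ESC samples are not. Wherever these are compared, parental origin and the unnamed deletions cannot be told apart. The Snrpn-Snurf window was lower in the BP embryo, with a difference of -64.5 points. A difference of at least 25 points is called higher or lower here. Of 52559 genome tiles of 1 kb with at least 5 kept cytosines in both libraries, 0.249% were lower by as much, and the median tile differed by 0.45 points. The BP value rested on 7 cytosines against 24 in the WT embryo, a share of 29.2%. Among 4248 tiles with at least 20 measured cytosines in WT, the median share was 90.5%, and 2.54% of the tiles had a share as low. All 7 cytosines were on the minus strand, the MspI site upstream of the start among them. On these 7 alone the mean was 1.19% in the BP embryo and 90.8% in the WT embryo. The highest BP cytosine, 67149537, stood at 8.33% in the BP embryo and 93.3% in the WT embryo, and the other 6 were at 0% in the BP embryo. Ndn stood 1.97 points higher in the BP embryo than in the WT embryo and did not pass 25 points.

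The BM embryo, which has no sperm genome, had a lower Snrpn-Snurf mean than the WT embryo, with a difference of -24.4 points, just short of 25 points. Only 0.0604% of 57981 tiles were lower by 25 points or more, with a median difference of 0.96 points. Over the 22 cytosines measured in both embryos the means were 41.3% in the BM embryo and 67.1% in the WT embryo, which is past 25 points. Of these 22, 9 were higher and 13 lower in the BM embryo, so the cytosines of the window did not move together. Ndn stood 9.38 points higher in the BM than in the WT embryo, with 9 of 13 cytosines higher and 4 lower.

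The split among the cytosines followed the DNA strands. A CG dinucleotide reads the same on both strands, and both of its cytosines are usually methylated or unmethylated together. In the Snrpn-Snurf window the plus strand was 9.22 points higher in the BM embryo, at 61.4% in the BM embryo and 52.2% in the WT embryo over 6 shared cytosines. On the minus strand the difference was -40.3 points, at 34.6% in the BM embryo and 74.9% in the WT embryo over 14 shared cytosines. The direction of the BM difference at this window thus depended on the strand that was read.

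Strands of the same CG dinucleotides differed widely within libraries. Over the CG dinucleotides of the window with values on both strands, the BM embryo had 61.4% on the plus strand and 15.6% on the minus strand (6 dinucleotides), a difference of 45.8 points. The BM E19.5 brain had 70.3% on the plus and 42.7% on the minus strand (12 dinucleotides), and the WT adult brain had 53.4% on the plus and 20.2% on the minus strand (7 dinucleotides). In the WT embryo the minus strand was the higher one, with 51.7% on the plus and 76.2% on the minus strand (8 dinucleotides), and so it was in the BM adult brain, with 25.6% on the plus and 42.9% on the minus strand over only 3 dinucleotides. In early diploid ESCs the strand means were close, with 52.0% on the plus and 57.0% on the minus strand (14 dinucleotides). Single dinucleotides there differed by 16.1 points on average without regard to sign. The minus strand was higher by at least 25 points at 3 of the 14.

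Such strand differences were uncommon elsewhere in most of these libraries. The mean of a tile differed between strands by at least 25 points in 0.424% of tiles in the BM embryo, 0.588% in the WT embryo, 0.381% in the BM E19.5 brain and 0.247% in early diploid ESCs. Among tiles that themselves stood between 25% and 75%, these shares were 1.21%, 1.55%, 0.96% and 0.607% in the same order. Strand differences were more common in the adult brains. In the BM adult brain 12% of all tiles differed by as much, and in the WT adult brain 8.74% of all tiles and 9.32% of intermediate tiles did, so there the strand difference of the window is less set apart from the rest of the genome. The Snrpn-Snurf window passed 25 points in the BM embryo, the BM E19.5 brain and the WT adult brain, and fell just short in the WT embryo at -24.5 points (plus minus minus strand).

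The strand difference was wide around the start site and again at the far end of the window. The kept cytosines were grouped, after their values had been seen, into blocks set off by gaps of over 100 bp and by a line 100 bp downstream of the start. In the block at the start (67149997 to 67150115) the 5 minus-strand cytosines stood far from the plus strand. Their mean was 5.39% in the BM embryo and 0% in the BP embryo, against 91.5% in the WT embryo. In brain it was 1.21% in BM at E19.5 and 3.14% in the BM adult, against 4.91% in the WT adult. Among embryos and brains the WT embryo was the library that stood apart on this strand, and the low level of the BP embryo here was shared by every BM library and by the WT adult brain. The 4 plus-strand cytosines of the block averaged 62.4% in the BM embryo and 57.7% in the WT embryo. In brain they averaged 69.9% in BM at E19.5 and 67.4% in the WT adult. These plus-strand cytosines had no value in the BP embryo, nor in the BM adult brain. In early diploid ESCs the block averaged 67.6% on the plus and 55.1% on the minus strand.

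At the dinucleotide 67149997 and 67149998, the dinucleotide of this block farthest into the gene, the BM embryo had 64.7% on the plus and 8.82% on the minus strand, against 53.8% and 91.7% in the WT embryo. The BM E19.5 brain had 68.75% on the plus and 0% on the minus strand there, and the WT adult brain had 72.9% on the plus and 5.88% on the minus strand. At the next dinucleotide into the gene, 67149978 and 67149979, the BM embryo had 64.7% and 66.7% on these strands, against 61.5% and 52.4% in the WT embryo. The strands were thus far apart at the one dinucleotide and close at its neighbour. In the WT adult brain they still differed at that neighbour, with 53.9% on the plus and 12.9% on the minus strand.

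Farther into the gene the levels changed from block to block. In the block from 67149938 to 67149979 the 3 minus-strand cytosines averaged 65.3% in the BM embryo, against 52.4% in the WT embryo. In the block from 67149740 to 67149787 the 5 minus-strand cytosines averaged 51.9% in the BM embryo, against 69.1% in the WT embryo. Both blocks had no value in the BP embryo. In the last block, 67149466 to 67149537, the 2 minus-strand cytosines again separated the embryos, at 0.943% in the BM embryo and 4.17% in the BP embryo, against 88.9% in the WT embryo. The only cytosine assigned to the plus strand there and read in both the BM and the WT embryo stood at 54.5% in the BM embryo and 20.8% in the WT embryo. The minus-strand cytosines stood at 57.5% and 62.8% in the BM adult brain, against 54.1% and 65.9% in the WT adult brain. Neighbouring cytosines of a block often had identical values, such as 52.4% at all 3 minus-strand cytosines from 67149938 to 67149979 in the WT embryo, so a block holds fewer separate observations than cytosines. Read numbers per strand were not given, and their part in the strand differences was not tested.

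**Figure D2:**
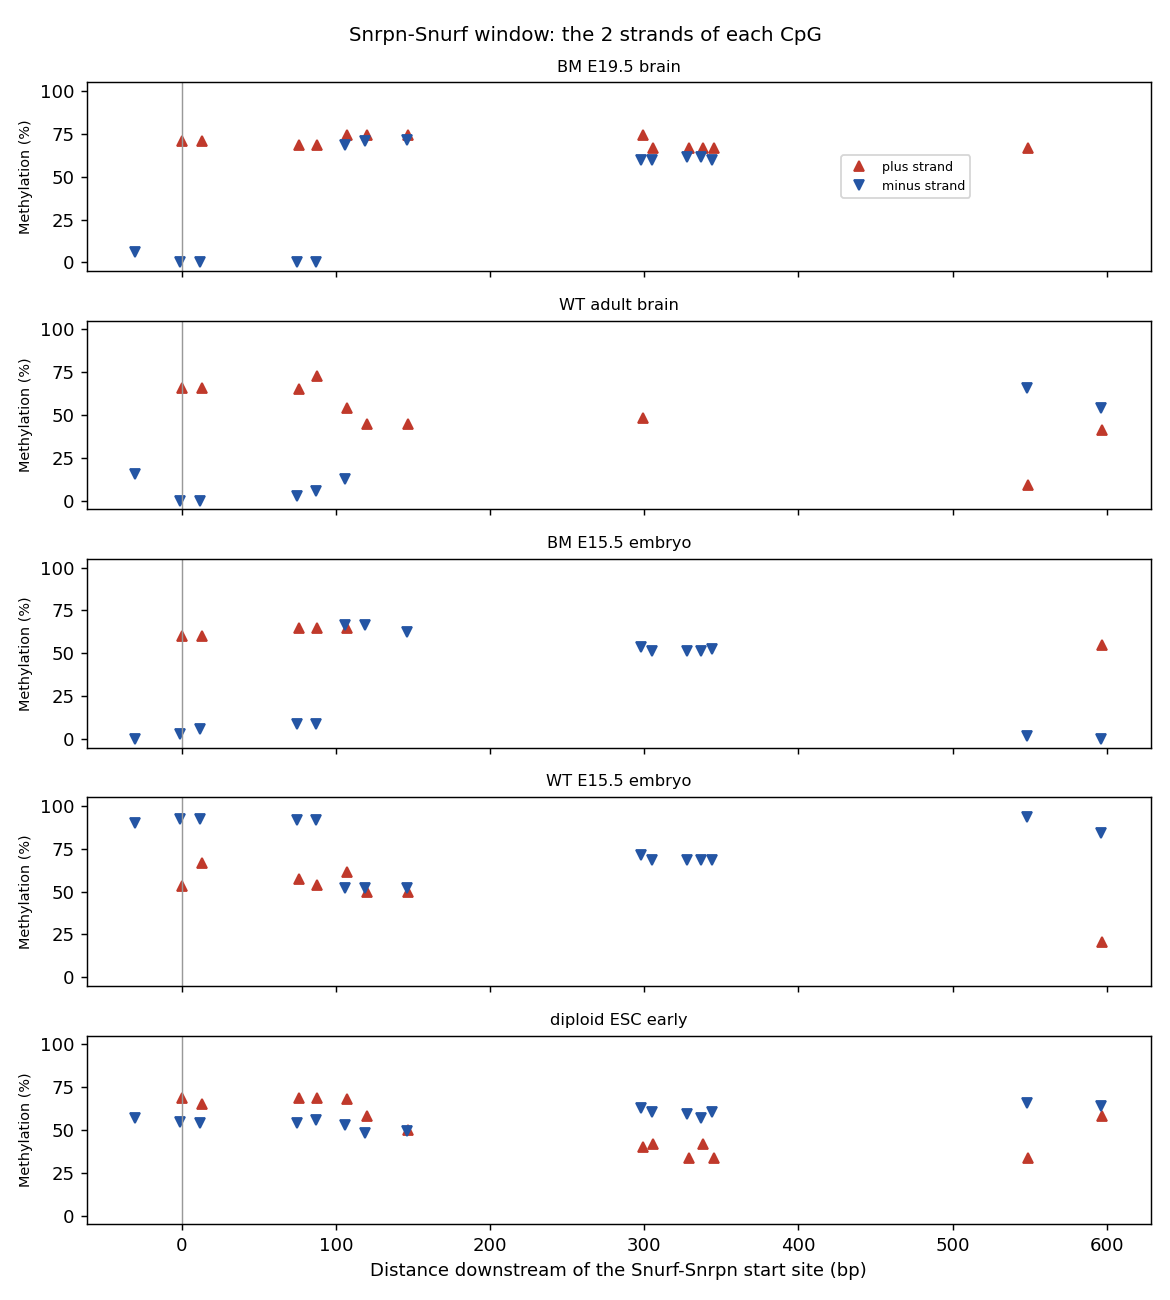
Methylation (percent) on the plus strand (red, upward triangles) and minus strand (blue, downward triangles) of the kept cytosines against their distance from the Snurf-Snrpn start site (bp, positive values lie downstream), in the 5 libraries with intermediate means over at least 19 cytosines. Within 100 bp of the start the minus strand lies between 0% and 15.7% in the BM E19.5 brain, the WT adult brain and the BM embryo and between 89.8% and 92.2% in the WT embryo, while the plus strand lies between 53.3% and 72.9% in all of these.

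The BM embryo, with only maternal genomes, was also set against the BP embryo. The Snrpn-Snurf window was 40.1 points higher in the BM embryo by the window means, and 0.966% of 53825 tiles were higher by at least 25 points. The 7 cytosines measured in both embryos averaged 4.12% in the BM embryo and 1.19% in the BP embryo, a difference that does not pass 25 points. The 40.1 points thus came from cytosines that had a value in the BM embryo and none in the BP embryo. Ndn was 7.41 points higher in the BM than in the BP embryo.

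In adult brain the Snrpn-Snurf window averaged less in BM than in WT, with a difference of -12.2 points. The libraries shared 13 cytosines, which averaged 25.8% in the BM adult and 27.8% in the WT adult brain, with 5 higher, 5 lower and 3 equal. By strand the shared cytosines averaged 34.6% in the BM and 38.1% in the WT adult brain on the plus strand, and 20.1% in the BM and 20.2% in the WT adult brain on the minus strand. Where both adult brains had a value they were thus nearly alike, and the gap between the window means came from cytosines measured in the WT adult brain alone.

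By age, the BM adult brain was lower at the Snrpn-Snurf window than the BM E19.5 brain, with a difference of -29.2 points, and 9.88% of 42819 tiles were lower by 25 points or more. Over the 9 shared cytosines the means were 13.1% in the BM adult and 32.2% in the BM E19.5 brain, a gap that does not pass 25 points. The WT adult brain was lower than the WT embryo, with a difference of -27.8 points, and 3.76% of 55871 tiles were lower by as much as 25 points. Here too the strands differed, with 56.8% in the WT adult brain and 51.7% in the WT embryo on the plus strand (8 shared cytosines), and 20.2% in the WT adult brain and 85.4% in the WT embryo on the minus strand (7 shared cytosines). Ndn was 7.20 points higher in the WT adult brain than in the WT embryo. The BM E19.5 brain stood 13.7 points above the BM embryo at the Snrpn-Snurf window and differed from it by -0.768 points at Ndn. Over the 18 shared cytosines of the Snrpn-Snurf window the means were 48.5% in the BM E19.5 brain and 44.2% in the BM embryo. The comparisons of a brain with a whole embryo differ in tissue as well as in age, and these cannot be told apart.

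In ESCs, late diploid cells were lower than early diploid cells at the Snrpn-Snurf window, with a difference of -52.9 points, and all 25 cytosines measured in both libraries were lower. Loss was widespread in this comparison, with 73.7% of 59009 tiles lower by at least 25 points and a median difference of -38.6 points, so passing 25 points does not set the window apart. The difference was 4.54 points between late and early ahESCs and -0.846 points between late and early phESCs, whose early levels were both under 3%. Ndn differed by -2.21 points between late and early diploid ESCs and by 2.92 points between late and early ahESCs.

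The haploid ESCs of both parental origins lacked methylation at the Snrpn-Snurf window already at early passage. The difference from early diploid ESCs was -53.1 points in early phESCs, which carry a maternal genome, and -51.5 points in early ahESCs, which carry a paternal genome. All 25 shared cytosines were lower in phESCs and all 22 in ahESCs. The background of these calls differed, with 53.2% of 61998 tiles lower in phESCs (median difference -26.0 points) and 0.38% of 63928 tiles lower in ahESCs (median difference -1.56 points). Directly compared, early phESCs differed from early ahESCs by -1.61 points at this window. Ndn differed from early diploid ESCs by -2.11 points in early phESCs and by -1.26 points in early ahESCs.

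Embryos were then set against the early ESC type of their parental origin. The Snrpn-Snurf window was 40.02 points higher in the BM embryo than in early phESCs, where 65.9% of 57756 tiles were higher by 25 points or more. It was at about the same level in the BP embryo as in early ahESCs, with a difference of -1.66 points, where 16.2% of 53059 tiles were higher. It was 11.4 points higher in the WT embryo than in early diploid ESCs, where 14.1% of 59270 tiles were higher by 25 points. By strand, the WT embryo minus early diploid ESCs was -11.3 points on the plus (8 shared cytosines) and 17.9 points on the minus strand (14 shared cytosines). Ndn was higher in the embryo in all 3 pairs, by 25.6 points in BM, 17.3 points in BP and 14.1 points in WT. Only the BM value passed 25 points. On the 6 Ndn cytosines shared with early phESCs the means were 28.2% in the BM embryo and 1.75% in early phESCs. Only 1 of the 14 Ndn cytosines reached 20% in an ESC library, so the rule favoured the embryo in these pairs. Over all listed Ndn cytosines with a value the means were 11.6% in the BM embryo and 1.20% in early phESCs, which does not pass 25 points.

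The other genes of the domain came from a list of 15, and sequence of 12 of them could be placed on mm9. Magel2 encodes a MAGE family protein of endosomal protein recycling, Mkrn3 a makorin zinc finger ubiquitin ligase and Peg12 a protein of the FRAT family. Magel2 (chr7:69521896-69526526, 67 kept cytosines) averaged 49.6% in the BM and 51.7% in the BP embryo, against 48.5% in the WT embryo. Mkrn3 (chr7:69562479-69565289, 47 kept cytosines) averaged 39.2% in the BM and 42.5% in the BP embryo, against 38.3% in the WT embryo. Peg12 (chr7:69606757-69609646, 154 kept cytosines) averaged 21.7% in the BM and 24.6% in the BP embryo, against 25.8% in the WT embryo over the 120 cytosines that the embryos shared. None of the 3 passed 25 points in either embryo comparison. Each of the 3 genes, like Ndn, thus differed by under 10 points between embryos. At the Snrpn-Snurf window the 7 cytosines read in all 3 embryos averaged 4.12% in the BM and 1.19% in the BP embryo, against 90.8% in the WT embryo. All 7 are on the minus strand. The 22 cytosines read in both the BM and the WT embryo averaged 41.3% in BM and 67.1% in WT. Of these 22, 9 were higher and 13 lower in the BM embryo.

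In brain these genes stayed near their embryo levels. Magel2 averaged 52.2% in BM at E19.5 and 46.7% in the BM adult, against 47.4% in the WT adult. Mkrn3 averaged 38.6% in BM at E19.5 and 41.5% in the BM adult, against 38.0% in the WT adult. Peg12 averaged 25.2% in BM at E19.5 and 29.8% in the BM adult, against 26.5% in the WT adult. The BM adult library thus held values at Magel2, Mkrn3 and Peg12, while Ndn could be read in the BM brain at E19.5 alone.

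In early ESCs Mkrn3 and Peg12 were as low as Ndn, and Magel2 was not. Mkrn3 averaged 1.54% in early phESCs and 2.03% in early ahESCs, against 4.54% in early diploid ESCs. Peg12 averaged 1.54% in early phESCs and 1.73% in early ahESCs, against 1.82% in early diploid ESCs. Magel2 averaged 16.2% in early phESCs and 27.9% in early ahESCs, against 32.1% in early diploid ESCs. At late passage Magel2 averaged 13.0% in phESCs, 11.2% in ahESCs and 7.91% in diploid ESCs. The higher Magel2 level came in part from the 3′ side of the gene. Over 5 shared cytosines more than 1 kb after its start, early ahESCs had 74.9% and early diploid ESCs 77.4%, and over 43 cytosines up to that distance they had 22.4% in ahESCs and 24.8% in diploid ESCs.

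**Figure D3:**
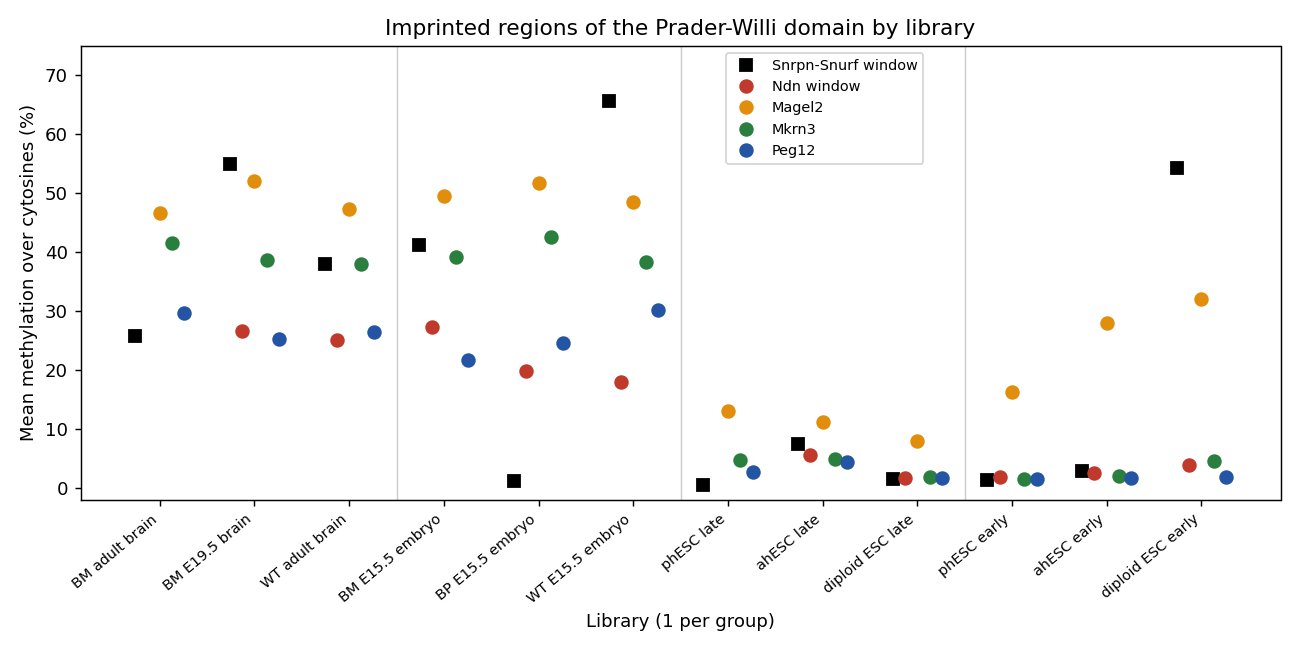
Mean methylation (percent) over the kept cytosines of the Snrpn-Snurf window (black squares), the Ndn window and the genes Magel2, Mkrn3 and Peg12 (circles) in each of the 12 libraries. Among the embryos the Snrpn-Snurf window is at 1.19% in BP over 7 cytosines and at 65.7% in WT over 24, each of the other regions differs by under 10 points between embryos, and in early diploid ESCs it is at 54.3% while Ndn, Mkrn3 and Peg12 lie under 5%.

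Genes at the far side of the Snrpn-Snurf window had few cytosines that reached 20%. Ube3a, a ubiquitin ligase gene expressed from the maternal copy in neurons, had listed cytosines in its placed first exon, and none reached 20% in any library. None did in the placed sequence of Atp10a and Nipa1 either. Gabra5 had 6 such cytosines, Gabrg3 and Tubgcp5 had 5 each, Nipa2 had 2, and Herc2 and Cyfip1 had 1 each. Over these few cytosines the 6 genes averaged 21.5% to 38.5% in late ahESCs, and where they were measured in the other 11 libraries no gene averaged over 15.4%. A cytosine was kept only if some library reached 20%, and those of Herc2 and Cyfip1 did so in late ahESCs alone. The rule thus fixed their contrast in advance, and the higher late ahESC means are not read as a difference between libraries. Sequences of Oca2 and Snhg14 were not placed and were not analysed here.

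The genome was searched for 1 kb tiles outside the domain whose 12 library means were most like those of the Snrpn-Snurf window, by the mean absolute difference over libraries. Of 21191 tiles measured in all 12 libraries, the most alike was chr2:157385001-157386000 at the promoter of Nnat, which encodes the membrane proteolipid neuronatin, with a mean absolute difference of 5.71 points. The next tile along Nnat, chr2:157386001-157387000, was rank 4 with 7.65 points. The Nnat tile stood at 60.02% in the BM and 0.476% in the BP embryo, against 63.3% in the WT embryo, and at 0.852% in late and 46.3% in early diploid ESCs. The others of the leading 5 were chr7:135831001-135832000 (7.25 points), chr6:30689001-30690000 (7.38 points) and chr2:174124001-174125000 (7.66 points), with no RefSeq promoter placed within 1 kb. For Ndn, 40307 tiles could be compared over the 10 libraries in which it was read. The most alike were chr1:64781001-64782000 (1.68 points), chr5:122279001-122280000 (1.84 points), chr2:30599001-30600000 (2.18 points) and chr11:95853001-95854000 (2.24 points), none with a promoter placed within 1 kb. Likeness was chosen by these very values and is a description.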

How the data were processed

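DNA methylation was measured by RRBS in 12 mouse libraries, 1 per group. Per the submitters' processing notes, the authors used Trim Galore and Bismark 0.13.1 with build mm9. The deposited values are methylation percentages per cytosine, from 0 to 100, for 8119606 positions, with missing values marked by a letter. Coverage, its minimum and the handling of replicates were not given in the sources used here. The table lists cytosines of CG and GC without strand or context. Neighbouring kept positions were read as the plus and minus cytosine of a CG.

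Windows were averaged over each library's own cytosines that reached 20% in any library, with at least 5 required. The same rule gave tiles of 1 kb, and a difference of 25 points was called. Strand comparisons of tiles needed 3 CG dinucleotides with both strands. Gene sequences were placed by at least 12 listed positions and at least 2 times the next best match within a stretch of chromosome 7, with no listed position outside the pattern, and 30 of 287 pieces were placed. No coordinate was converted between builds. The tile calls were tested on simulated data. Named genes were the members, the listed neighbours in the domain and the 5 most alike tiles per window. One of those for Ndn is not reported here. The members, gene lists and comparisons were chosen with earlier results of these data known. With 1 library per group no test was run, 7 alternatives were planned, and separate strands were added after seeing the data. Depth is unknown, so precision cannot be stated. Columns were matched to libraries by name, with one early ahESC column under a shortened name. Scripts ran in Python 3.11.15 with pandas 2.3.3 and NumPy 2.4.6, figures came from Matplotlib 3.10.9 and convolutions from SciPy 1.17.1.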

Additional observations from a re-analysis of the deposited data

Results flagged for a closer look

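The change with passage had different sizes in the 3 ESC types at the Snrpn-Snurf window. Late minus early was -52.9 points in diploid ESCs, 4.54 points in ahESCs and -0.846 points in phESCs. Early ahESCs, at 2.85%, and early phESCs, at 1.24%, could not fall as far as diploid ESCs, which started at 54.3%. On the 10 cytosines that phESCs had at both passages the means were 0.395% late and 0.231% early. At Ndn it was -2.21 points in diploid ESCs and 2.92 points in ahESCs. Each group had 1 library, so these differences between cell types were not tested. The late ahESC and late phESC libraries are among those with values on unplaced Y sequence, and their early counterparts are not. Both Ndn differences are far under 25 points, and their error is unknown.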

How the results depend on the processing

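Of 92 alternative values for 11 differences, 86 kept their side of 25 points and 87 kept their sign, and none changed the sign of a called difference. All 39 alternatives for Ndn stayed under 25 points, ranging from -4.46 to 10.4 points, and 35 kept their sign. For Ndn in the BP minus the WT embryo, at 1.97 points, all cytosines gave -0.0179, the median -3.37 and the minus strand -0.835, and for early ahESCs minus early diploid ESCs the median gave 0. Ndn could not be compared in adult brain. The alternatives were all cytosines with a value, shared cytosines, the median, a minimum of 40%, the 10 libraries outside the pair, averaged strands, a window wider by 500 bp and, added after seeing the data, each strand alone. Not all of the 92 values could move. For the Snrpn-Snurf window the 40% minimum, the libraries outside the pair and the wider window kept the same cytosines and repeated every main value. For Ndn the wider window did the same, and so did the libraries outside the pair except in the BP minus the WT embryo. Shared Ndn cytosines also repeated the main value for the BM minus the WT embryo. They did so too for late minus early diploid ESCs and for early ahESCs minus early diploid ESCs. Such repeats give no evidence of stability. For the Snrpn-Snurf window, taking all cytosines gave -9.89 points for the BM minus the WT embryo, -25.6 for the BP minus the WT embryo, -21.3 for late minus early diploid ESCs, -21.1 for early ahESCs and -21.8 for early phESCs minus early diploid ESCs. This setting adds the 72 listed cytosines below 20%, and the last 3 differences then no longer passed 25 points. The list holds cytosines of GC as well as CG, so the lower means are not those of CG sites alone. In the Ndn stretch all 8 listed CG dinucleotides were kept, so the positions left out there lie largely outside CG. How far this holds for the Snrpn-Snurf window was not tested. Shared cytosines gave -25.9 for the BM and -89.6 for the BP minus the WT embryo, and -2.03 for the BM minus the WT adult brain, where the median gave -36.5. The minus strand alone gave -40.3, -89.5 and -0.127 for these pairs in turn, and the plus strand gave 9.22 for the BM minus the WT embryo and -64.8 for early ahESCs minus early diploid ESCs. The cause of the strand dependence was not tested. No paired analysis was possible because each group had 1 library and the labels give no replicate numbers, and no library could be left out for the same reason. Unknown read depth limits every value.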
